A study of Mus musculus with 5 samples.

Results

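The teratoma labelled P5_2iL_F was compared with the teratoma labelled P5_2iL by reduced representation bisulfite sequencing, an assay that reads cytosine methylation mainly in DNA rich in CpGs. A value is the methylation level of a cytosine in percent, and every difference is P5_2iL_F minus P5_2iL in percentage points. Levels were compared over cytosines listed in both files, in fixed tiles of 1 kb of the mouse genome (mm10) with 5 or more such cytosines, and in windows at gene ends. That gave 199401 tiles of the 379739 in which any of the 5 libraries of the series listed 5 or more cytosines. Both teratomas carry the strain label C57BL/6x129S6. They were obtained after tetraploid embryo injection with embryonic stem cells (ESCs), and their labels differ only in the culture condition, which is not spelled out. Muscle of the same strain label as control and the teratomas P5_a2iL_1 and P5_LCDM_1 make up the rest of the series. Each group holds 1 library, so all values describe libraries and not conditions, there is no replicate check and no test was made. A teratoma holds several tissues, so a lower level in all of its cells and a different mix of cells cannot be told apart.

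A CpG reads the same on both strands, and the methyl group on the older strand is copied to the new strand by the maintenance methyltransferase after each round of DNA replication. Most CpGs of mammalian DNA are therefore methylated on both strands or on neither, while CpG islands at gene starts are mostly free of methylation. At imprinted genes the maternal and the paternal copy differ in methylation, which gives intermediate levels in a mix of both copies. The strands of a CpG have separate entries in the files, so each difference could be read on the plus strand and again on the minus strand of the same DNA. The strands are separate readings within a library, not replicates of a condition.

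The ends of 4 genes described here differed between the libraries by 10 points or more on each strand, over 10 or more CpGs measured on both strands. These ends held 55 (Tubb4a), 46 (Hcar1), 21 (Krtcap3) and 46 (Dnajb3) shared cytosines, fewer than the median of 71 over all gene ends. The stretches below lie just before the starts of these genes and are shown because single CpGs in them can be followed by name. The stretches were chosen after the values were seen. Each is the 250 bases before the gene's start, 5′ to 3′ on the strand of the gene, from RefSeq (GRCm38.p6), and capitals mark the CpGs measured in both libraries on at least 1 strand. Tubb4a (chr17:57087601-57087850, minus strand) encodes a beta-tubulin of the nervous system, Hcar1 (chr5:123880004-123880253, minus strand) a lactate receptor, Krtcap3 (chr5:31251456-31251705, plus strand) a keratinocyte-associated protein, and Dnajb3 (chr1:88205749-88205998, minus strand) a co-chaperone of the DnaJ family.
Tubb4a: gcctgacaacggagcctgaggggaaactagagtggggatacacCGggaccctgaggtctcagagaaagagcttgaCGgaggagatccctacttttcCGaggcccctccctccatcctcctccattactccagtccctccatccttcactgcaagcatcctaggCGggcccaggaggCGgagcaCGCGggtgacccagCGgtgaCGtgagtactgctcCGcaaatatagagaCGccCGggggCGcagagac
Hcar1: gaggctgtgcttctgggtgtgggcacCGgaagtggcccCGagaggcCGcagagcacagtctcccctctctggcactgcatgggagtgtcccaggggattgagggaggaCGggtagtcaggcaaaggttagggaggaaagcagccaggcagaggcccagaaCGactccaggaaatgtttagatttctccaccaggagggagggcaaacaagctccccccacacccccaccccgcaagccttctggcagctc
Krtcap3: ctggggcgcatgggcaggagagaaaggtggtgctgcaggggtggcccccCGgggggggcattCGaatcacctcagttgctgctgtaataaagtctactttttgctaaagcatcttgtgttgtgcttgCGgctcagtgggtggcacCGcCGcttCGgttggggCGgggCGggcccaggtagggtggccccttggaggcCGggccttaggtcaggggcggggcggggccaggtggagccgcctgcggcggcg
Dnajb3: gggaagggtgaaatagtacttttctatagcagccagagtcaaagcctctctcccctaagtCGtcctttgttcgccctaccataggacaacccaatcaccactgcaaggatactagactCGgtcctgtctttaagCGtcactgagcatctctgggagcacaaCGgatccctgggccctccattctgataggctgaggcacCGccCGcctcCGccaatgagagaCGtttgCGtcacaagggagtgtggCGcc

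In the Tubb4a stretch all 13 measured CpGs were lower in P5_2iL_F as means of their measured strands, at 25.3% against 55.6% on average. The CpG 74 bases before the start was lower on the plus strand but higher on the minus strand, at 73.7% against 71.4%. Those 175 and 67 bases before the start read the same in both libraries on the plus strand. The CpG 53 bases before the start read 6.25% against 43.8% on the plus strand and 20% against 64.3% on the minus strand. The CpG 175 bases before the start differed little, at 77.5% against 80.4% over both strands. In the Hcar1 stretch all 5 measured CpGs were lower, with a mean of 25% against 58%, but 2 of them were higher on the plus strand and lower on the minus strand. In the Krtcap3 stretch all 9 measured CpGs were higher in P5_2iL_F as means of their strands, at 64.9% against 34.5% on average. There the CpG 88 bases before the start read 80% on each strand of P5_2iL_F, and 28.6% and 50% on the plus and minus strands of P5_2iL. The CpG 188 bases before the start was lower on the minus strand, at 33.3% against 50%. Those 201 and 53 bases before the start read 0% in both libraries on 1 strand. The Dnajb3 stretch was measured on 1 strand only and was mixed, with 6 CpGs lower, 3 higher and 1 the same. The difference at Dnajb3 lay after its start instead.

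The libraries were close in level. Over 4057624 shared cytosines the mean was 50.3% in P5_2iL_F and 50.8% in P5_2iL, a difference of -0.559 points. It was -0.540 on the plus strand and -0.554 on the minus strand of CpGs read on both. P5_2iL_F was lower on 21 of 21 chromosomes, from -0.674 on chromosome 15 to -0.245 on chromosome Y, and on both strands of all but Y, where the strands read -0.932 and 0.484. Fully methylated cytosines, at exactly 100%, made up 28.1% of the set in P5_2iL_F and 30.7% in P5_2iL. Cytosines from 20 to 80% made up 14.2% and 12.3%. The files hold no read counts, so the depth behind a percent is unknown, and the share at exactly 100% can move with depth. Whether depth had a part in this difference was not tested.

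The shift was not even across the genome. Cytosines were sorted by their mean level in the muscle, P5_a2iL_1 and P5_LCDM_1 libraries, which did not enter the comparison. Where that mean was 40 to 60%, the level was 68.8% in P5_2iL_F and 70.4% in P5_2iL, a difference of -1.68 points. Over CpGs read on both strands it was -1.93 points on the plus strand and -1.82 on the minus strand. Where it was 0 to 5%, the levels were 1.36% and 1.33%. Where it was 95 to 100%, they were 95.6% and 96.0%. The difference was also close to 0 in CpG-dense DNA. With fewer than 5 listed cytosines within 100 bp the levels were 80.6% and 81.5%, and with 30 or more they were 3.93% and 3.94%. Cytosines listed in 1 of the files alone were more methylated than the shared ones, with a mean of 73.3% over 1261052 cytosines in P5_2iL_F and 69.6% over 831175 in P5_2iL.

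**Figure D1:**
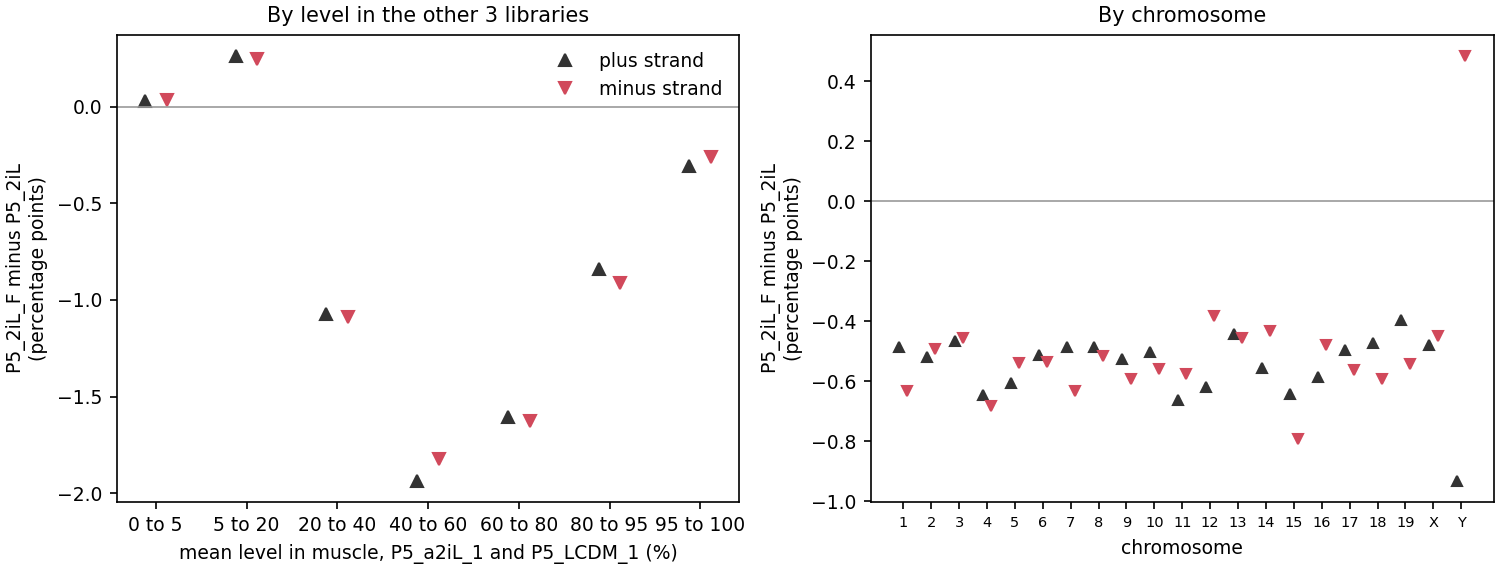
Difference of mean level (P5_2iL_F minus P5_2iL, percentage points) on the plus strand (dark triangles) and the minus strand (red triangles), by the mean level in the other 3 libraries (left) and by chromosome (right). The strands lie at -1.93 and -1.82 points at 40 to 60% and near 0 at 0 to 5%, and both are below 0 on every chromosome except Y.

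At single CpGs the libraries differed no more than the strands of 1 library did. The spread of a cytosine, taken as the root mean square difference divided by the square root of 2, was 10.9 points between the same strands of the 2 libraries and 12.7 between opposite strands. Between the strands within a library it was 12.7 in P5_2iL_F and 12.5 in P5_2iL. For P5_a2iL_1 against P5_2iL the spread between opposite strands was 15.6, with 15.4 and 12.2 within the libraries. For P5_LCDM_1 against P5_2iL it was 17.3, with 14.5 and 12.5 within. These comparisons share the P5_2iL library.

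A difference seen on the plus strand of a tile said little about the minus strand of the same tile. Across 131099 tiles with 3 or more CpGs measured on both strands in both libraries, called strand pairs here, Pearson's r between the differences on the strands was 0.0319. The same value was 0.436 for P5_a2iL_1 against P5_2iL over 125146 tiles and 0.636 for P5_LCDM_1 against P5_2iL over 130120 tiles. Tiles share a library and are not replicates, so these are descriptions. In wider windows r for P5_2iL_F against P5_2iL was 0.0418 at 10 kb, 0.0937 at 100 kb and 0.108 at 1000 kb. At 1000 kb both strands had the same sign in 65.9% of 1446 windows, against 94.3% and 96.9% in the comparisons of P5_a2iL_1 and P5_LCDM_1 with P5_2iL. The signs were not centred on the difference over the whole genome, which both strands share. Those shares therefore do not show regional agreement apart from it.

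**Figure D2:**
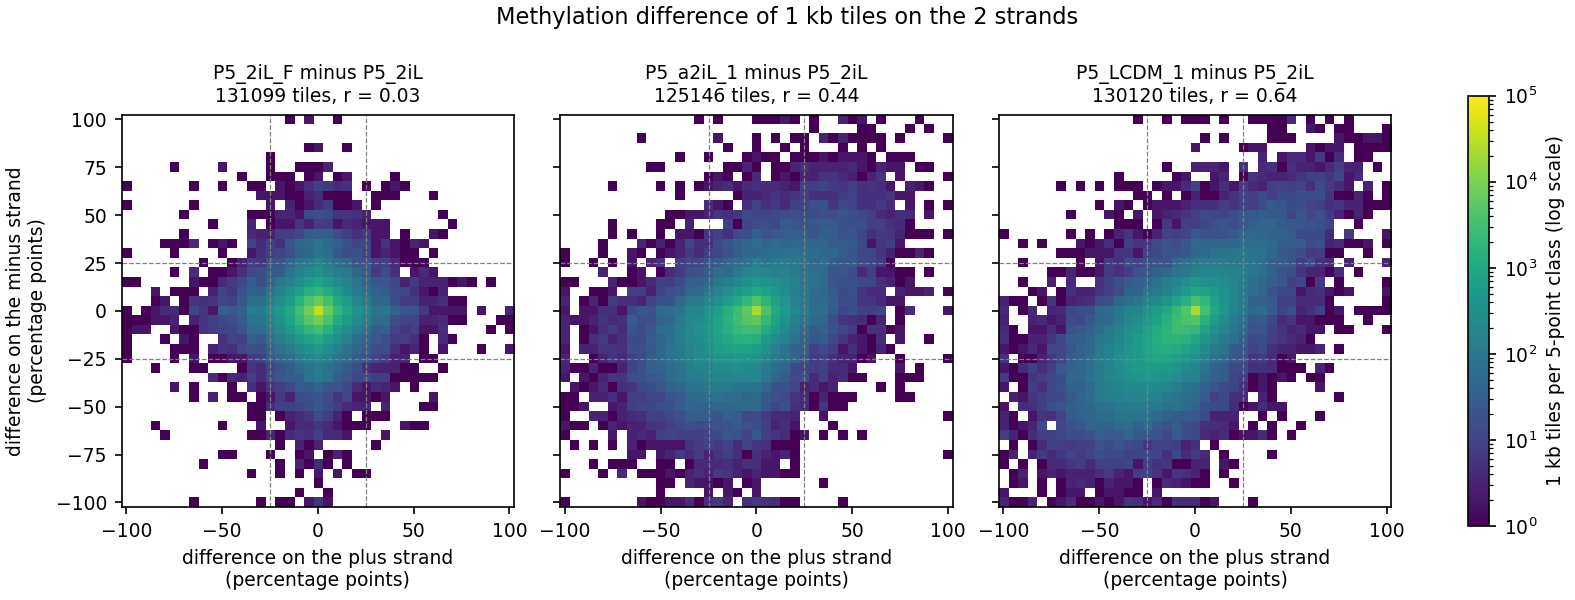
Number of 1 kb tiles (colour, log scale) by the difference on the plus strand (x axis) and on the minus strand (y axis), in percentage points, with dashed lines at 25 points. P5_2iL_F minus P5_2iL forms a cross along the axes (r = 0.03), while P5_a2iL_1 minus P5_2iL and P5_LCDM_1 minus P5_2iL stretch along the diagonal (r = 0.44 and 0.64).

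Tiles were called by size, at a difference of mean level of 25 points or more. Of the 199401 tiles, 1556 (0.780%) were higher and 2041 (1.02%) lower in P5_2iL_F, 3597 (1.80%) in all. On each strand alone, of the 131099 tiles with such pairs, 97 (0.0740%) stood higher and 115 (0.0877%) stood lower by 25 points or more, 212 (0.162%) in all. In 213 tiles (0.162%) the strands were past 25 points in opposite directions, 1 more than in the same direction. A further 6981 tiles (5.32%) passed on 1 strand only, 2949 (2.25%) higher and 4032 (3.08%) lower. Read from the plus strand, 1709 tiles were higher with a median of 31.7 points, and on their minus strand the median was 0, with 97 past 25 points in the same direction and 107 in the opposite one. In the other direction 2213 tiles were lower with a median of -32.4 points, and on their minus strand the median was -0.278, with 115 past 25 points in the same direction and 106 in the opposite one. In the comparison of P5_a2iL_1 with P5_2iL, 4316 tiles (3.45%) passed on both strands and 284 (0.227%) in opposite directions. For P5_LCDM_1 against P5_2iL the counts were 11563 (8.89%) and 247 (0.190%).

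Tiles past 25 points on both strands held few CpGs. Their median was 10 shared cytosines, against 14 over all tiles with strand pairs, and 145 of the 212 had 3 or 4 strand pairs. With 3 or 4 pairs, 162 tiles went in opposite directions. Of 15509 tiles with 20 or more pairs, 0 passed on both strands and 2 in opposite directions. Their levels were intermediate. In 140 of the 169 called tiles measured in all 5 libraries (82.8%) the mean of the other 3 libraries was from 20 to 80%, against 40.4% of all tiles and 80.8% of tiles with opposite strands. A neighbouring tile was measured for 41 of the 97 higher and 56 of the 115 lower tiles. The 47 neighbours of the higher tiles had a median difference of -0.053 points, and the 67 of the lower tiles -1.47, with 3 and 1 of them past 25 points in the same direction. The 83178 neighbours of all tiles with strand pairs had a median of -0.137, with 452 higher and 637 lower by 25 points or more. Within 1 kb of a gene start 12 of 19900 tiles (0.0603%) passed on both strands, against 113 of 60801 (0.186%) inside genes and 87 of 50398 (0.173%) outside genes. A single pair of adjacent tiles passed together, in Hcn3, a gene of a cation channel that opens on hyperpolarisation (chr3:89147001-89149000), at 50% against 21.2% and at 55.9% against 20.2%. Over the 4 cytosines of its first tile listed in all 5 libraries, however, P5_2iL_F was lower, at 25% against 37.5%. Over the 6 such cytosines of its second tile the levels were 53.3% and 54.2%.

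The tiles with the largest difference on their weaker strand were mostly short of CpGs. In Ppp1r13l, which encodes an inhibitor of p53, the tile read 25% in P5_2iL_F and 100% in P5_2iL over 8 cytosines. In Entpd1, the gene of the ATP-cleaving surface enzyme CD39, it read 33.3% against 100%, also over 8. Slc2a6, a glucose transporter gene, stood at 20% against 94% over 10 cytosines, and Gabbr2, a subunit of the GABA-B receptor, at 25% against 78%. The tile in Efna3, which encodes an ephrin ligand, was measured in all 5 libraries over 14 cytosines. There P5_2iL_F read 33.1% and P5_2iL 89.0%, while muscle read 52.7%, P5_a2iL_1 43.8% and P5_LCDM_1 72.6%. Of the higher tiles, that in Ptn, the gene of the growth factor pleiotrophin, read 72.2% against 27.8%. That in Dip2c read 93.8% against 40.7% over 16 cytosines, with 46.9% in muscle, 73.4% in P5_a2iL_1 and 22.9% in P5_LCDM_1. Tiles outside genes stood at 66.7% against 13% (nearest gene Olfr539), 91.7% against 33.3% (Tmem64), 83.3% against 25% (Laptm4a) and 58.3% against 16.7% (Cks2).

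CpG-rich tiles that differed on both strands were rare. Among 36191 tiles with 10 or more strand pairs, a limit set after the values were seen, 12 (0.0332%) passed 25 points on both strands, 3 higher and 9 lower, while 8 went in opposite directions and 409 passed on 1 strand. The 12 lay in or near Igf2, Cd209c, Ptprb, Cdh15, Rbm20, Rpl38, Inpp5f, Dnajb3 and Erfl, all lower in P5_2iL_F, and Lpar3, Hcn3 and Wfdc6a, all higher. In the tiles that were lower, muscle lay nearer to P5_2iL_F than to P5_2iL in 8 of 9, P5_a2iL_1 in 6 and P5_LCDM_1 in 5, over cytosines listed in all 5 libraries. In the 3 that were higher, those counts were 2, 1 and 1, of which Hcn3 gave 1 each although its levels there were nearly the same in the pair. Of 125400 tiles with strand pairs measured in all 5 libraries, the other libraries all lay nearer to P5_2iL_F in 43868. They all lay nearer to P5_2iL in 29602. The tiles were chosen for a large difference in the pair, so the counts are not read as a trait of these tiles.

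The tile in Igf2, which encodes an imprinted growth factor of the embryo, held 36 shared cytosines (chr7:142654001-142655000). Its level was 41.7% in P5_2iL_F and 87.7% in P5_2iL, with differences of -30.9 points on the plus strand and -61.1 on the minus strand. Over the 35 cytosines listed in all 5 libraries muscle read 40.4%, P5_a2iL_1 43.7% and P5_LCDM_1 66.7%, so P5_2iL stood above the other 4. Of its 18 CpGs read on both strands 13 were lower on both, and 0 were higher on both. Of the 18 minus-strand cytosines 11 read 0% in P5_2iL_F and 11 read 100% in P5_2iL. The 9 other measured tiles within 10 kb had a median difference of -3.70 points, ranging from -21.4 to 4.31, and the window at the Igf2 start read 1.15% and 1.66%.

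In Inpp5f, a phosphoinositide phosphatase gene with an imprinted transcript, the tile (chr7:128687001-128688000) read 30% in P5_2iL_F and 88% in P5_2iL over 25 cytosines. The other libraries read 60% in muscle, 57.3% in P5_a2iL_1 and 49.4% in P5_LCDM_1, so the pair lay at the opposite ends of the 5. Of its 12 CpGs read on both strands 8 were lower on both. The 2 other measured tiles within 10 kb went the other way or were the same, at 14.4 and 0 points. Neighbouring CpGs there had the same values. All 12 minus-strand cytosines read 100% in P5_2iL and 9 of them 0% in P5_2iL_F, while 9 of 12 plus-strand cytosines read 66.7% in P5_2iL. Close CpGs can be read by the same molecules, so cytosines within a tile are not independent. The CpG-rich tiles were also chosen by the strand means over these CpGs. Counts of CpGs lower or higher on both strands in them therefore give no separate support.

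The Ptprb tile (chr10:116331001-116332000), in the gene of a receptor phosphatase of endothelial cells, read 56.6% against 83.8% over 38 cytosines, and 15 of 17 CpGs were lower on both strands. Muscle stood at 46.6%, P5_a2iL_1 at 37.5% and P5_LCDM_1 at 66.5%. Cdh15, which encodes the cadherin of muscle cells, had a tile (chr8:122864001-122865000) at 53.1% against 82.0%. There, over the 31 cytosines listed in all 5 libraries, P5_a2iL_1 (81.2%) and P5_LCDM_1 (86.1%) lay with P5_2iL, and only muscle (37.5%) was below P5_2iL_F. In Rbm20, a splicing factor gene of heart and skeletal muscle, the tile (chr19:53850001-53851000) read 44.3% against 74.6% over 32 cytosines. Over the 21 listed in all 5 libraries the pair read 48.4% and 70.9%, and the other 3 libraries from 17.2 to 38.4%. In the Cdh15 tile 9 of 16 CpGs were lower on both strands, and in the Rbm20 tile 4 of 15. Tiles nearest to Cd209c, Rpl38 and Erfl read 20.2% against 43.7%, 34.5% against 69.4%, and 18.9% against 42.3%, with 12 of 17, 9 of 13 and 9 of 10 CpGs lower on both strands. Of the higher tiles, that in Lpar3, a receptor gene for lysophosphatidic acid, read 80.8% against 53.5% over 24 cytosines. Over the 16 listed in all 5 libraries the pair read 77.4% and 55.2%, with 73.2% in muscle, 51.2% in P5_a2iL_1 and 60.1% in P5_LCDM_1. Its 3 other measured tiles within 10 kb were lower in P5_2iL_F, with a median of -11.1 points. CpGs higher on both strands were few in the higher tiles, 4 of 11 in Lpar3, 2 of 10 in Wfdc6a and 1 of 10 in Hcn3.

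**Figure D3:**
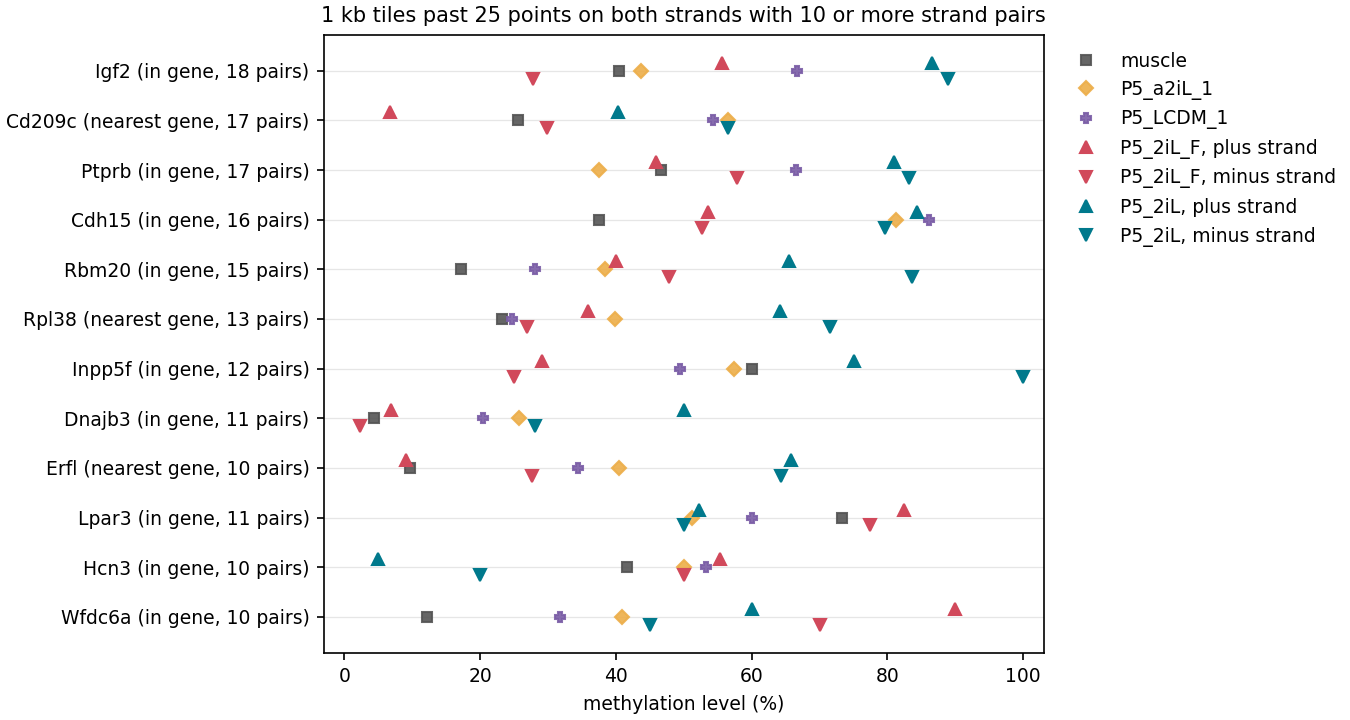
Methylation level (%) of the 12 CpG-rich tiles past 25 points on both strands, with each strand of P5_2iL_F (red) and P5_2iL (blue) and the level in the other 3 libraries over cytosines listed in all 5. The red and blue triangles of a tile do not overlap, since the tiles were chosen for that. The other libraries fall between or beside them. In the 9 lower tiles muscle is nearer to P5_2iL_F in 8, P5_a2iL_1 in 6 and P5_LCDM_1 in 5.

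**Figure D4:**
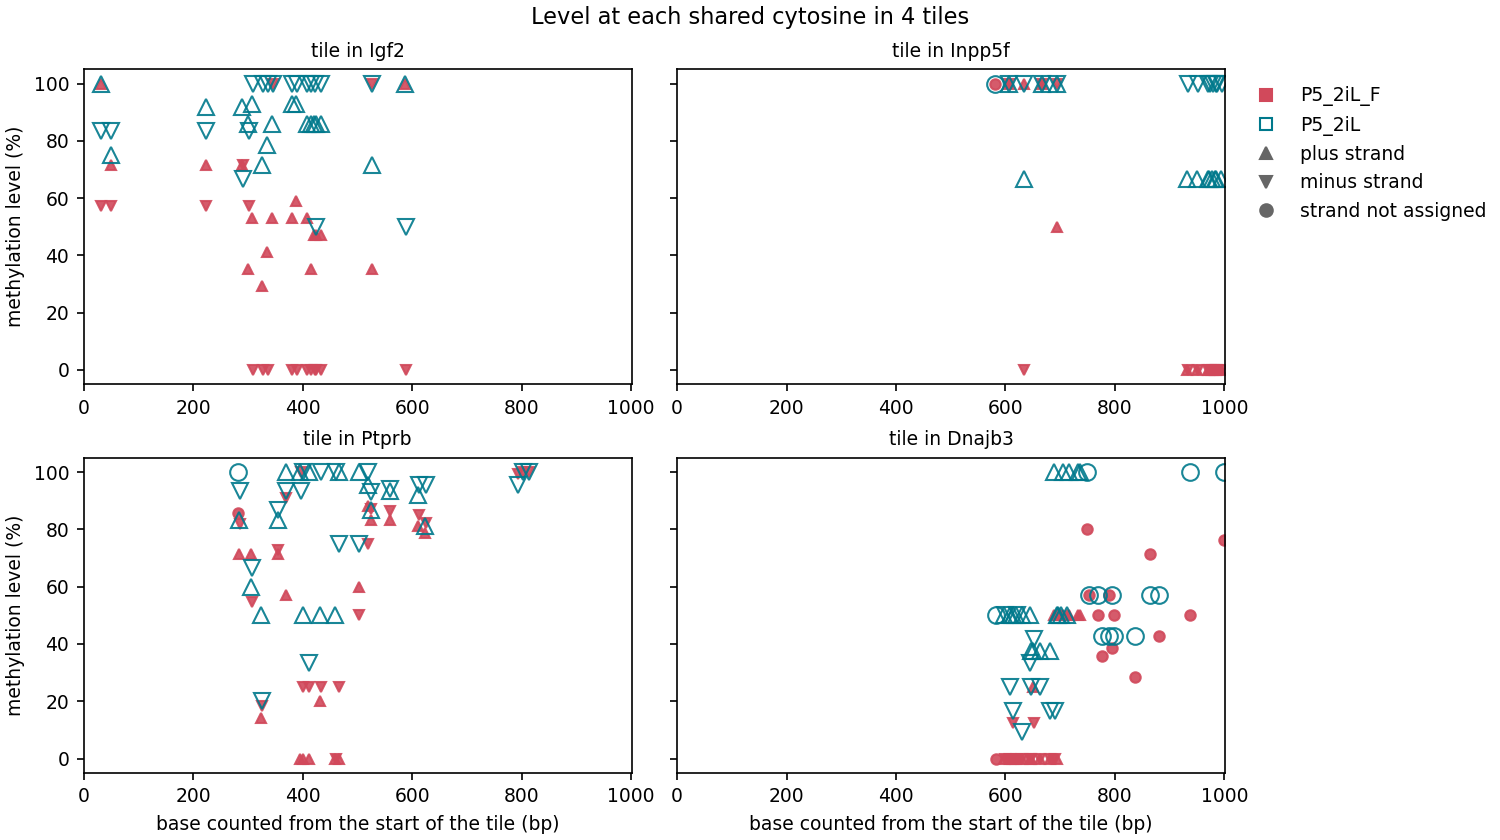
Level (%) at each shared cytosine along the tiles in Igf2, Inpp5f, Ptprb and Dnajb3, with filled red symbols for P5_2iL_F and open blue symbols for P5_2iL. In Igf2 and Inpp5f runs of minus-strand cytosines stand at 0% in P5_2iL_F and at 100% in P5_2iL.

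Gene ends were windows from 1000 bp outside to 500 bp inside the start of a gene, or, where the strand was not known, of the end with more listed cytosines. Of 14904 measured gene ends, 24 (0.161%) were higher and 30 (0.201%) lower in P5_2iL_F by 25 points or more, and 13708 (92.0%) lay within 5 points. Of the 54 called (0.362%), 33 had fewer than 3 strand pairs, 14 passed on 1 strand and 5 on both. Their median was 8 cytosines, against 71 over all gene ends. The median difference over all gene ends was -0.01 points, and -1.01 over the 2301 with a level above 20% in either library.

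Strand pairs could be read at 13967 gene ends. On both strands 5 (0.0358%) passed 25 points, 2 (0.0143%) of them higher and 3 (0.0215%) lower, and 2 passed in opposite directions. On 1 strand 144 (1.03%) passed, 68 (0.487%) higher and 76 (0.544%) lower. Dnajb3, which lies within the cluster of Ugt1a glucuronosyltransferase genes, read 29.9% in P5_2iL_F and 55.8% in P5_2iL over 46 cytosines. Over the 45 listed in all 5 libraries muscle read 9.44%, P5_a2iL_1 30.1% and P5_LCDM_1 24.4%. P5_2iL was the highest of the 5 there. All 11 of its CpGs read on both strands were lower on both. Dnajb3 was chosen by the means of these same CpGs, so that count gives no separate support. Klra3, a natural killer cell receptor gene, stood at 36% against 90% over 10, with 80% in muscle, 97.5% in P5_a2iL_1 and 47.1% in P5_LCDM_1. Its strands were uneven, with -75 points on the plus strand and -25 on the minus strand, which is just at the limit. Higher on both strands were Wfdc6a, of the WAP-domain family, at 81.8% against 56.8% over 22 cytosines, and Crocc2, a rootletin-like gene, at 88.4% against 58.3% over 16. Wfdc6a differed by 30 points on the plus strand and by 25, just at the limit, on the minus strand. The CpG-rich tile in Wfdc6a holds the same 22 cytosines as its gene end. That in Dnajb3 holds the same 11 strand pairs as the Dnajb3 end, so tile and gene end are not separate results.

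The largest differences on 1 strand only showed how uneven the strands were. Zfp970, a zinc finger gene, was higher by 83.3 points on the minus strand and by 0 on the plus strand. Fam167b was higher by 71.4 points on the minus strand and 16.2 on the plus strand. Krtcap3 was higher on both, by 35.4 points on the plus strand and 21.6 on the minus strand. Ddx6, an RNA helicase of processing bodies, was lower by 66.7 points on the plus strand and higher by 7.41 on the minus strand. Which strand carries Ddx6 was not known, so its window can lie at either end of the gene. H60c, a ligand of the NKG2D receptor, differed by -58.3 and -10.9 points on the plus and minus strands, and Cnmd, the gene of the cartilage protein chondromodulin, by -21.2 and -57.5.

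Smaller differences were read in windows with a higher minimum of strand pairs. With 10 points or more on each strand and 10 or more strand pairs, a rule added after the values were seen, 12 (0.101%) of 11937 gene ends were higher, 17 (0.142%) were lower, and 16 went in opposite directions. Among tiles the counts were 104 higher (0.287%), 220 lower (0.608%) and 213 opposite of 36191. Together 29 gene ends and 324 tiles passed in the same direction on both strands.

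Among the lower gene ends Cdx1, a homeobox gene of the intestine, had the most cytosines, and it read 49.8% in P5_2iL_F and 62.8% in P5_2iL over 132 of them, with -12.2 points on the plus strand and -16.0 on the minus strand. Over the 101 cytosines listed in all 5 libraries muscle stood at 11.7%, P5_a2iL_1 at 36.4% and P5_LCDM_1 at 35.7%, so P5_2iL was the highest and P5_2iL_F the next. The strand of Cdx1 was not known, and its window overlaps that of Gm52351, which differed by -4.22 points over 104 cytosines. Cldn7, which encodes a tight junction claudin, read 17.8% against 30.9% over 54 cytosines listed in all 5 libraries, with 6.85% in muscle, 14.7% in P5_a2iL_1 and 56.6% in P5_LCDM_1. Aqp2, the water channel gene of the renal collecting duct, read 78.3% against 91.4%. Other lower ends were Tubb4a at 19.9% against 48.0% over 55 cytosines and Hcar1 at 53.3% against 83.0% over 46. Over the 34 cytosines of Hcar1 listed in all 5 libraries the pair read 54.5% and 88.8%. There muscle read 26.5%, P5_a2iL_1 55.2% and P5_LCDM_1 14.4%. Over 48 such cytosines of Tubb4a the pair read 17.8% and 48.7%, and those libraries 17.0%, 26.8% and 23.5%. Alox5ap, which encodes a partner of 5-lipoxygenase in leukotriene synthesis, stood at 78.9% against 95.7%, Tekt2, a tektin gene of cilia, at 25.6% against 40.3%, and Kdm6b, a histone H3 demethylase gene, at 57.7% against 71.0%. For Alox5ap and Kdm6b the strand of the gene was not known either, so their windows can lie at either end of the gene.

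Of the gene ends that were higher, Krtcap3 read 68.9% against 42.0% over 21 cytosines, with 27.8% in muscle, 46.2% in P5_a2iL_1 and 84.6% in P5_LCDM_1. Adgb, the gene of androglobin, read 52.0% against 26.9%. The clustered protocadherin genes Pcdhga4 and Pcdha12, which encode neuronal adhesion proteins, read 54.4% against 34.1% and 26.0% against 15.6%. For both the strand of the gene was not known, so the windows can lie at either end of the gene. Peg3, an imprinted zinc finger gene, and its neighbour Usp29 share a start region and the same 42 cytosines, which read 34.6% against 22.6%. There muscle stood at 39.8%, P5_a2iL_1 at 26.0% and P5_LCDM_1 at 40.6% over cytosines listed in all 5 libraries, where the pair itself read 23.7% and 19%. Rbm46, a germ cell RNA-binding gene, read 36.9% against 28.4% over 135 cytosines.

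**Figure D5:**
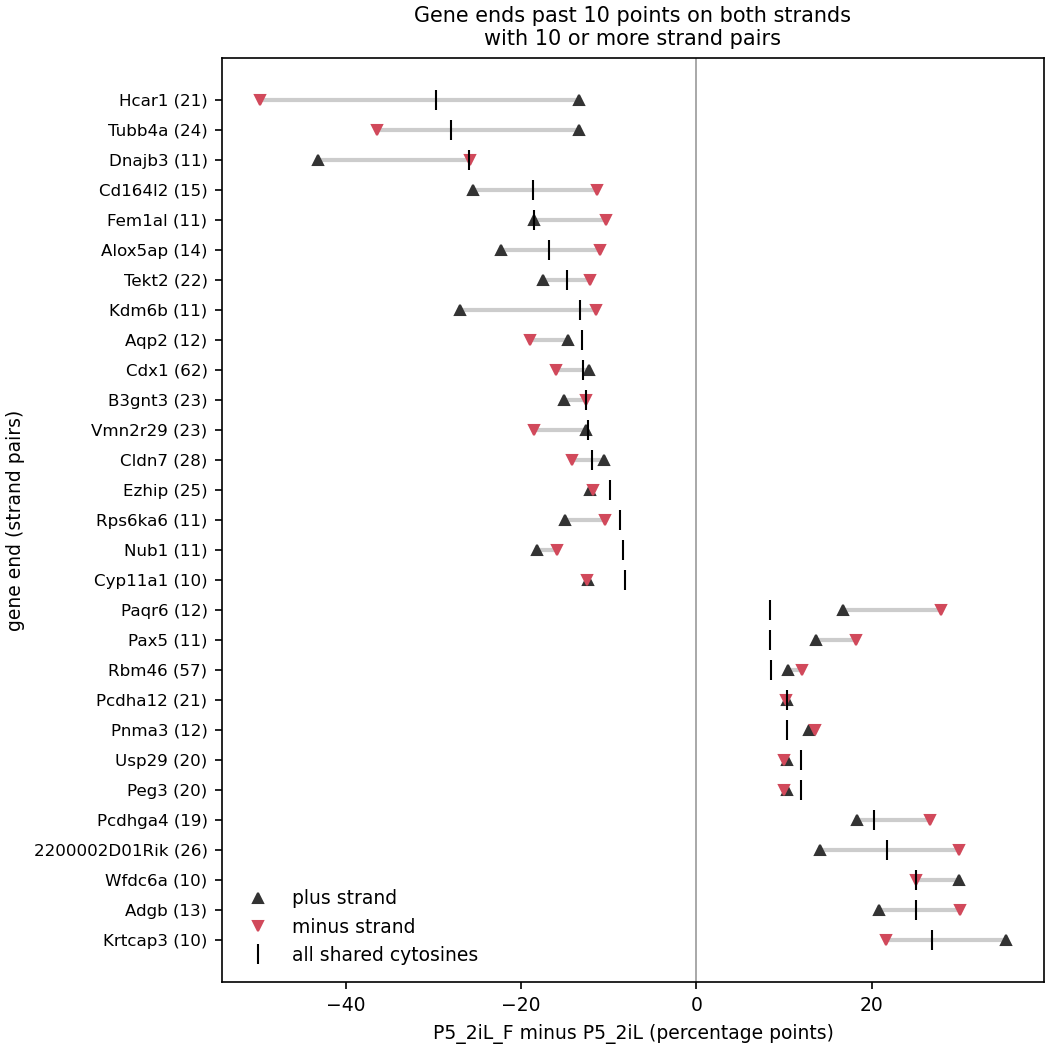
Difference (P5_2iL_F minus P5_2iL, percentage points) on the plus strand (dark), the minus strand (red) and over all shared cytosines (bars) for the 29 gene ends past 10 points on both strands with 10 or more strand pairs, given in parentheses. Hcar1 has the widest gap between strands, with -13.4 and -49.8 points, and Cdx1, with 62 pairs, has -12.2 and -16.0.

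Over all gene ends 0.362% were called and 0.0358% passed on both strands, so counts of 0 in lists of this size lie near the background and say nothing of their members. In all 13 lists 0 members passed 25 points on both strands. Among pluripotency genes 0 of 21 measured ends were called (median difference 0.386 points), among germline genes held off by methylation 0 of 25 (-0.028), and among Polycomb-regulated developmental genes 0 of 57 (0.334). Of the genes of the DNA methylation machinery 0 of 21 were called, all within 5 points. The germline genes were methylated in both libraries, with medians of 93.1% and 94.8%, and the Polycomb-regulated genes were not, with 3.78% and 3.61%. Among neural genes 0 of 22 were called, among endoderm and epithelium genes 0 of 23, among endothelial genes 0 of 10 and among trophoblast genes 0 of 10.

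In 4 other lists 1 or 2 members were called, against 0.362% of all gene ends, all over 10 cytosines or fewer. Of 23 skeletal muscle genes Tnnt3, a troponin T of fast fibres, was called at 100% against 16.7% over 6 cytosines with no strand pair. Of 15 blood and immune genes Ltf, which encodes lactoferrin, was called at 93.3% against 40% over 5 cytosines. Of 11 genes of skin and squamous epithelium Lgals7 (20% against 80%) and the keratin gene Krt10 (67.1% against 97.8%) were called over 5 cytosines each. Of 19 genes of mesenchyme and cartilage the collagen gene Col5a2 (7.27% against 40% over 5 cytosines) and Cnmd (56.8% against 87.7% over 10) were called. For Tnnt3 and Col5a2 the strand of the gene was not known, so their windows can lie at either end of the gene. The medians of these 4 lists were 0.170, 0.194, 0.429 and -0.278 points.

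Imprinted genes were read both at their ends and along their bodies. Of 29 measured ends 1 was called, against 0.362% of all gene ends. It was Nnat, which encodes the brain proteolipid neuronatin, at 42.1% against 67.8% over 71 cytosines. Neither of its strands passed 25 points over strand pairs, with -12.2 on the plus strand and -9.57 on the minus strand, and in a window of 500 bp outside to 250 bp inside the start the difference was -4.49. Ends at intermediate levels differed in both directions. Snrpn, at the imprinting centre of the Prader-Willi region, read 59.8% against 38.4%, with 36.2 points on the plus strand and 8.28 on the minus strand. Commd1, whose intron holds the imprinted Zrsr1, read 39.0% against 37.5%, with 12.4 and -9.82 points on the strands. Plagl1 read 44.1% against 46.7% and Zrsr1 47.3% against 53.5%. Of the tiles inside imprinted genes, 252 in 40 genes, 2 passed on both strands (0.794%, against 0.162% of all tiles with strand pairs). They were those in Igf2 and Inpp5f, both lower in P5_2iL_F, and with so few the shares are not read as different. On 1 strand 23 of the 252 passed, against 6981 of 131099 (5.32%) of all such tiles, and 0 passed in opposite directions. Whether the level of the tiles inside imprinted genes had a part in the count on 1 strand was not tested. The median difference of the 252 tiles was -0.406 points.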

How the data were processed

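The deposited files, 1 per library, list CpG cytosines with their methylation level in percent as the authors computed it, with no header and no read counts. Bismark, Trim Galore 0.6.4 and the build mm10 are named in the submitters' processing notes. For Bismark the version, and for the calls any coverage minimum, is not given in the sources used here. P5_2iL_F listed 5323090 cytosines and P5_2iL 4892985. The depth per cytosine is unknown, so no interval was computed.

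Each cytosine had equal weight on chromosomes 1 to 19, X and Y. Neighbouring listed positions were taken as the strands of a CpG. Checked against RefSeq promoter sequences of GRCm38.p6, 377326 of 377326 listed positions fell on a C or G of a CpG when counted from 1. Calls rest on size alone (25 points, 5 shared cytosines, 3 strand pairs). Gene starts came from 17491 RefSeq promoters, and other genes used the end with more listed cytosines, which can be the 3' end.

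Named items are all gene ends past 25 points on both strands, the 3 largest per direction on 1 strand, the 6 tiles per direction with the largest weaker-strand difference, adjacent tiles, and called list members (at most 4 per list). Of these, 1 gene end and some tiles are not reported here. CpG-rich tiles and gene ends past 10 points were added after the values were seen. The members and lists were chosen with earlier results of these data known. The tile code was tested on simulated data. The tools were pandas 2.3.3 and NumPy 2.4.6 in Python 3.11.15, with figures by matplotlib 3.10.9. Other settings, given in the closing section, varied the minimum of cytosines, the threshold, the tiles, the strand pairs and the windows.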

Additional observations from a re-analysis of the deposited data

How the results depend on the processing

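Counts of calls moved with the minimum and the threshold. Against 3597 tiles, there were 12202 with a minimum of 3 cytosines, 685 with 10, 7206 at 20 points and 910 at 40 points. Against 212 tiles on both strands (213 opposite), there were 67 (51) with 5 or more strand pairs, 482 (478) with 2 or more, 513 (428) at 20 points, 25 (22) at 40 points, and 324 (213) at 10 points with 10 or more pairs. Against 54 gene ends, there were 106 with a minimum of 3 cytosines, 19 with 10, 101 at 20 points, 12 at 40 points, and 29 past 10 points on each strand with 10 or more pairs. The mean difference of -0.559 points was -0.563 on autosomes and -0.595 over cytosines listed in all 5 files. Shifted tiles (3572, and 210 on both strands), centring on the median tile (3422 and 194) and autosomes alone (3480 and 204) stayed within 1.5 times of the main counts. Of the 17 named gene ends 15 had an alternative value, 25 values in all. Of these 23 stayed past 25 points in the same direction, 4 of them in a narrower window that holds the same cytosines. The 2 that did not were those of Nnat, -10.9 over strand pairs and -4.49 in the narrower window. The cause of these moves was not tested, beyond the number of windows that each setting admits. No paired analysis was possible because each group holds 1 library. The depth behind each percent is unknown, which limits all values of single cytosines and of windows with few CpGs.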
